A study of Mus musculus with 6 samples.

Results

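The 6 genes described here, Pax1, Pax9, Nkx3-2, Meox1, Meox2 and Scx, encode transcription factors of the sclerotome and of tendon precursors. They were taken by name, as every probe whose gene name in the array files is one of the 6, and they are 6 of the 28034 genes named on the array. They are covered by 10 probes of 60 bases, of which 9 passed the filter on dim probes. Both genotypes were on the C57BL/6J strain at embryonic day 9.5: wild type (WT), and Paraxis-/-, which lacks the basic helix-loop-helix factor Paraxis encoded by Tcf15. The labels name no other allele or agent. The tissue was anterior presomitic mesoderm with somites I to IV, and each pool held tissue of 5 embryos. There were 3 pools per genotype, and each WT pool was hybridised against 1 Paraxis-/- pool on 2 two-colour arrays with the dyes exchanged. WT pool A was paired with Paraxis-/- pool A, WT pool B with Paraxis-/- pool C, and WT pool C with Paraxis-/- pool B, and each pair takes the letter of its WT pool. Pair A was on slide 1, and pairs B and C were on slide 2.

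Somites are segments of paraxial mesoderm that first form as epithelial balls. Their ventral part becomes the sclerotome, which is induced by hedgehog signals from the notochord and floor plate and held by BMP antagonists, and which builds the vertebrae and ribs. Pax1 and Pax9 are closely related paired-box factors that act together in the vertebral column. Nkx3-2 is a homeobox factor downstream of them that promotes cartilage formation. Meox1 and Meox2 are homeobox factors of the whole somite that are jointly needed for normal somite derivatives. Scx is a basic helix-loop-helix factor that marks tendon precursors.

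The arrays were checked first on the targeted gene. The log2 ratio of Paraxis-/- over WT for Tcf15 was -5.23, -5.48 and -5.52 in pairs A, B and C. It fell in every pair, and the mean was -5.41 with an SE of 0.09, a 42.5-fold lower signal (limma, adjusted p = 0.000536, n = 3 pairs). Per array, 27080 to 30982 gene spots of WT and 28683 to 31795 of Paraxis-/- exceeded background clearly by the scanner software's flag. On slide 1, 79 to 486 spots per channel were saturated, and none was on slide 2, nor was any spot of the 6 genes on either slide. Precision is limited throughout by having 3 pairs.

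Of the 6 genes, 1 passed the threshold of 0.05 on limma's adjusted p: Pax1, which fell 20.4-fold. Over all 19353 genes tested, 0.0207% passed in either direction and 0.0103% were lower. Meox2 had a 3.02-fold lower mean signal in Paraxis-/- that did not pass, and Pax9, Nkx3-2, Meox1 and Scx had mean log2 ratios between -0.51 and 0.34 that did not pass either. At an unadjusted p under 0.05 there were 3 of the 6, Pax1 and Meox2 lower and Scx higher, against 5.07% of all genes. The sign was the same in all 3 pairs for 4 of the 6, 3 lower and 1 higher, where 25.7% of all genes had 1 sign, 12.2% lower and 13.5% higher. Pax1 and Meox2 were at least 1.5-fold lower in every pair, as were 0.119% of all genes, and 0.0672% were that much higher in every pair. The median log2 ratio of the 6 genes was -0.41, and that of all genes was 0.0039. By pair the median of the 6 genes was -1.22, -0.08 and -0.03 in A, B and C.

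**Figure D1:**
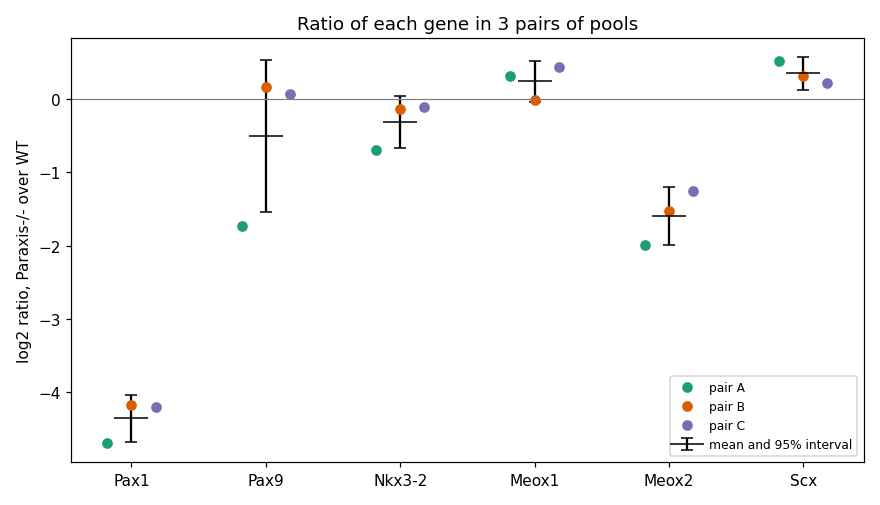
Log2 ratio of Paraxis-/- over WT (vertical axis) for each of the 6 genes (horizontal axis), with 1 point per pair of pools and the mean with its 95% interval from limma as a bar. Pax1 lies between -4.69 and -4.18 and Meox2 between -2.0 and -1.25, while Pax9 is at -1.74 in pair A and near 0 in pairs B and C.

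Pax1 had the lowest ratio of any tested gene apart from Tcf15 and ranked second by p. Its levels, as log2 signal, were 12.19, 11.35 and 11.49 in WT pools A, B and C. In the Paraxis-/- pools paired with them the levels were 7.50, 7.18 and 7.30. All 3 WT pools were high and all 3 Paraxis-/- pools low, with no overlap, as held for 2.92% of all genes in the lower direction. The log2 ratios were -4.69, -4.18 and -4.19 in pairs A, B and C. The mean was -4.35 with an SE of 0.13 and a 95% interval of -4.68 to -4.03 (limma, adjusted p = 0.00465, n = 3 pairs). An exact two-sided sign-flip test gave p = 0.25, the smallest that 3 pairs allow. Without pair B the mean was -4.44 and the adjusted p 0.229, so the call was lost. It held without pair A, at -4.18 within slide 2, and without pair C. In bulk tissue, fewer cells that express a gene and less RNA per cell cannot be told apart.

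These values came from probe A_51_P145322, at chr2:147200673-147200732 of mm9, which was printed as 10 spots on each array. On the 6 arrays 57 of its 60 spots were kept, and their log2 ratios ran from -5.23 to -3.99. Within an array the SD over spots was between 0.08 and 0.13. The array ratios were -5.10, -4.19 and -4.24 with Paraxis-/- in Cy3, and -4.28, -4.16 and -4.15 with it in Cy5. The 2 dye orientations thus lay close together in pairs B and C and further apart in pair A. The raw Paraxis-/- signal was still 2.14 to 6.14 times the local background, and the WT signal was 50.5 to 125 times. In both genotypes all 6 measurements of the probe were well above background.

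A further probe of Pax1, A_52_P511843, lies at chr2:147191039-147191524. Its 60 bases span 486 bases of the genome, so it crosses a splice junction, and it starts at base 309 of the transcript record named in the files, against base 2526 for the bright probe. It is shown because the 2 probes read distant stretches of the same transcript, and capitals mark the ATG with which it opens.
A_52_P511843: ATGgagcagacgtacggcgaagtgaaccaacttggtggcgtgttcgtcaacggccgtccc
Its levels were 6.82, 6.76 and 6.67 in WT pools A, B and C and 6.38, 6.46 and 6.46 in the paired Paraxis-/- pools. It was well above background in 5 of 6 WT measurements and in none of 6 Paraxis-/- measurements, so its ratio is only a bound. WT was at least 1.25-fold higher, with a mean log2 ratio of -0.32 and an SE of 0.08 (limma over probes, adjusted p = 0.702). Over the 28420 probes tested, 0.0141% passed the adjusted threshold, and 5.67% had an unadjusted p under 0.05. A bound was computed from the higher, on each array, of the probe's own Paraxis-/- level and the lowest signal well above background. The probe's own level was never below that lowest signal, so the bound equals the mean ratio and adds no limit. Both probes of Pax1 had a lower signal in Paraxis-/- in every pair. Agilent's processed signals, which replace both the background correction and the loess used here, put the dim probe at -2.07 and the bright one at -5.27. With loess kept, the dim probe was at -0.72 with a normexp offset of 0 and at -0.48 with no background correction. Averaging the probes of each gene gave -2.34 for Pax1, with a limma adjusted p of 0.0179. Pax1 lies 4.77 Mb from Tcf15 on chromosome 2.

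**Figure D2:**
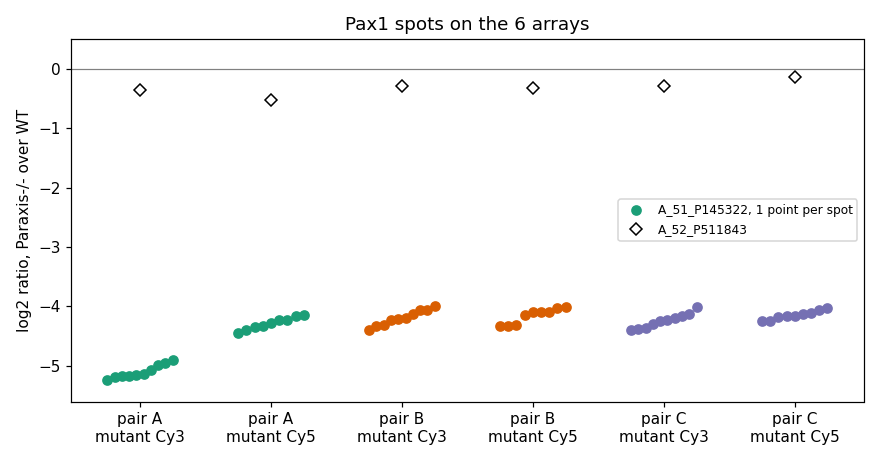
Log2 ratio of Paraxis-/- over WT (vertical axis) on each of the 6 arrays (horizontal axis, by pair and by the dye of the mutant pool) for Pax1. Filled points are the kept spots of the bright probe, between -5.23 and -3.99, and open diamonds are the dim probe, whose mean is -0.32.

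Pax9, the paralogue of Pax1, differed between the pairs. Its probe, A_52_P593379 at chr12:57811169-57811228, had levels of 9.59, 8.79 and 8.65 in WT pools A, B and C. The paired Paraxis-/- pools were at 7.85, 8.94 and 8.71. The genotypes overlapped: the Paraxis-/- pool of pair A was the lowest of the 6 and the WT pool of pair A the highest, and the other 4 lay between them. The log2 ratios were -1.74, 0.15 and 0.06, with a mean of -0.51, an SE of 0.40 and a 95% interval of -1.54 to 0.52 (limma, adjusted p = 0.953). In pair A both dye orientations gave a low value, -1.68 and -1.80. Without pair A, which is also the value within slide 2, the mean was 0.11 (limma, adjusted p = 0.945).

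Pair A had the widest ratios over all genes, with an SD of 0.35 and 0.39 on its 2 arrays against 0.23 to 0.30 on the others. It also differed from the other pairs in genes outside the 6, some of which are named here after their values were seen. Tbx6, a factor of the presomitic mesoderm, had log2 ratios of 2.43, -0.59 and 0.22 in pairs A, B and C. T, expressed in the tail bud and notochord, had 1.44, -0.34 and 0.39. Zic1, a zinc-finger factor of dorsal somites and neural tube, had -2.43, 0.32 and 0.11. Dll1 and Msgn1, also of the presomitic mesoderm, had smaller ratios of 0.66, -0.40 and 0.06 and of 0.42, -0.11 and 0.05. Myog, a muscle regulator, had -2.65, 2.04 and 1.55. None of these 6 genes passed the threshold, and the part of pool composition in the ratios of Pax9 and the other 5 regulators was not tested.

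Nkx3-2 was dim on this array. Probe A_52_P90603, at chr5:42152570-42152629, had levels of 7.44, 6.88 and 6.80 in WT pools A, B and C. The paired Paraxis-/- pools were at 6.74, 6.74 and 6.68. The WT pools did not overlap with the Paraxis-/- pools, as held for 2.92% of all genes in the lower direction. The gap was small, with WT pool C at 6.80 and the highest Paraxis-/- pools at 6.74. Pairs A, B and C had log2 ratios of -0.70, -0.14 and -0.12, with a mean of -0.32, an SE of 0.14 and a 95% interval of -0.67 to 0.04 (limma, adjusted p = 0.950). In pair A the ratio was -1.16 with Paraxis-/- in Cy3 and -0.23 with it in Cy5, so the dyes disagreed there. The probe was well above background in 6 of 6 WT and 4 of 6 Paraxis-/- measurements, and Agilent's processed signals gave -0.83. The other probe, A_51_P200204 at chr5:42152401-42152461, was not well above background in any measurement of either genotype and was not tested.

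Meox1 was bright in every pool. Probe A_51_P463536, placed by the files at chr11:101738797-101738837, a span of 41 bases for a probe of 60, had levels of 14.93, 14.35 and 14.27 in WT pools A, B and C. The paired Paraxis-/- pools were at 15.24, 14.32 and 14.70. The genotypes overlapped, and pair A was the highest in both. Pairs A, B and C had log2 ratios of 0.31, -0.02 and 0.43, with a mean of 0.24, an SE of 0.11 and a 95% interval of -0.04 to 0.52 (limma, adjusted p = 0.950). Probe A_52_P327923, at chr11:101739412-101739471, had levels of 12.82, 12.11 and 12.03 in WT and 12.90, 12.02 and 12.57 in the paired Paraxis-/- pools, which also overlapped. It had log2 ratios of 0.08, -0.09 and 0.55 and a mean of 0.18 with an SE of 0.14 (limma over probes, adjusted p = 0.919). Both probes of Meox1 were highest in pair C and slightly below 0 in pair B.

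Meox2 had a lower signal in all 3 Paraxis-/- pools. Probe A_51_P383001, at chr12:37905809-37905868, had levels of 11.73, 11.67 and 11.45 in WT pools A, B and C. The paired Paraxis-/- pools were at 9.73, 10.13 and 10.20. The genotypes did not overlap, as held for 2.92% of all genes in the lower direction. The log2 ratios were -2.0, -1.53 and -1.25, with a mean of -1.59, an SE of 0.15 and a 95% interval of -1.99 to -1.20. The unadjusted p of 0.000159 ranked 15 among all genes, and limma's adjusted p was 0.188, so the gene did not pass. Meox2 passed in 4 of 16 distinct alternative settings. These were fits of the 6 arrays singly, as with the replicate block (limma, adjusted p = 0.00166), and ratios scaled between arrays (limma, adjusted p = 0.0367). Fitting the arrays singly counts dye swaps of the same pools as samples. Without pair B the limma adjusted p was 0.992.

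The other Meox2 probe, A_52_P326096 at chr12:37894017-37904740, spans 10724 bases of the genome and so crosses an intron. It is shown because it reads spliced Meox2 RNA apart from the probe above.
A_52_P326096: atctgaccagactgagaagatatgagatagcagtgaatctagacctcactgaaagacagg
Its levels were 8.80, 8.32 and 8.10 in WT pools A, B and C and 7.37, 7.37 and 7.34 in the paired Paraxis-/- pools, again with no overlap. The log2 ratios were -1.42, -0.95 and -0.76, with a mean of -1.05 and an SE of 0.14 (limma over probes, adjusted p = 0.352). Both Meox2 probes had the same order of pairs, A lowest and C highest. For the dimmer probe the dyes differed in every pair. It had -1.74, -1.14 and -1.02 in pairs A, B and C with Paraxis-/- in Cy3, and -1.11, -0.76 and -0.51 in Cy5. Its raw Paraxis-/- signal was 2.45 to 4.35 times the local background. The mean ratio was -1.37 with a normexp offset of 0 and -1.52 with Agilent's processed signals.

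Scx was the member with a higher signal in every Paraxis-/- pool. Probe A_51_P380432, at chr15:76289708-76289767, had levels of 9.30, 9.49 and 9.34 in WT pools A, B and C. The paired Paraxis-/- pools were at 9.81, 9.80 and 9.55, so the genotypes did not overlap, as held for 3.04% of all genes in the higher direction. By pair the log2 ratios were 0.51, 0.31 and 0.21, with a mean of 0.34, an SE of 0.09 and a 95% interval of 0.12 to 0.57. The mean is 1.27-fold, and it did not pass (limma, adjusted p = 0.815).

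**Figure D3:**
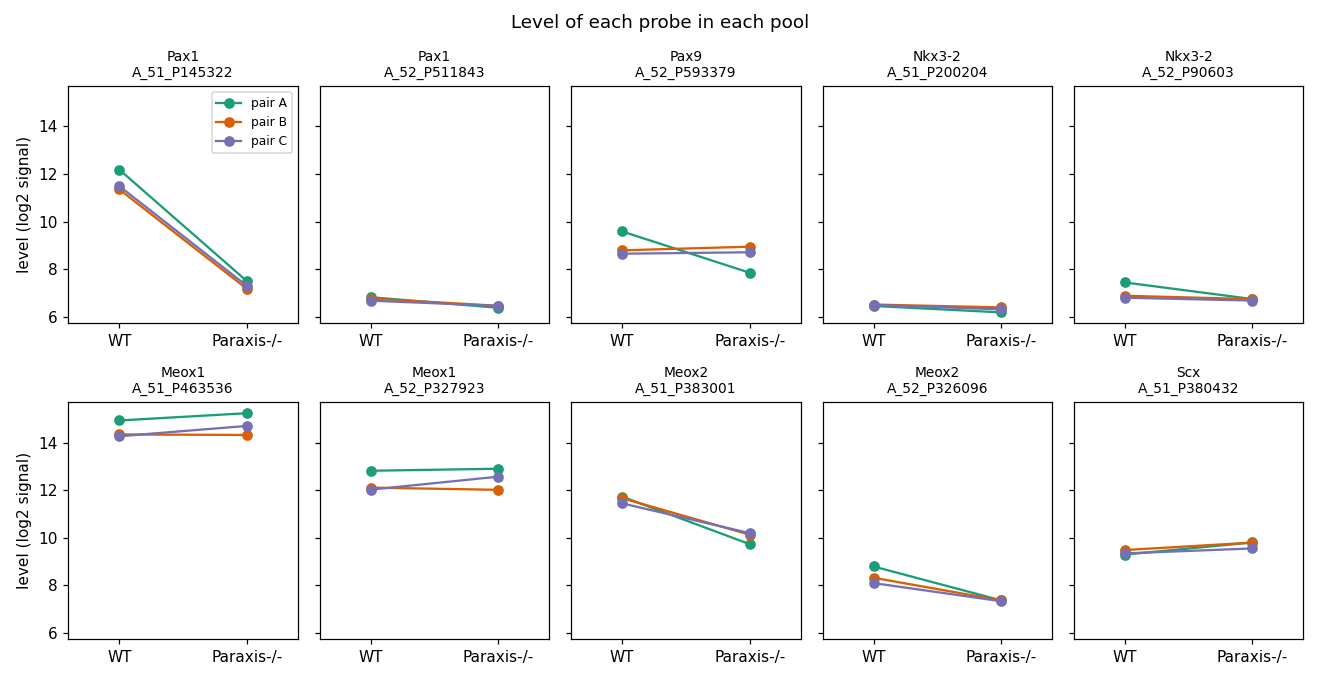
Level of each of the 10 probes as log2 signal (vertical axis) in WT and Paraxis-/- pools (horizontal axis), with a line joining the pools of a pair. The bright Pax1 probe drops from between 11.35 and 12.19 to between 7.18 and 7.50, and levels are to be compared within a panel, since probes differ in brightness.

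Related genes were set against each other within each pair, in 2 comparisons. Pax1 minus Pax9 was -2.95, -4.33 and -4.25 in pairs A, B and C, a mean difference of log2 ratios of -3.85 with an SD of 0.77. Meox2 minus Meox1 was -2.30, -1.51 and -1.69, a mean of -1.83 with an SD of 0.42. Both differences had 1 sign in all 3 pairs, and each exact two-sided sign-flip test gave p = 0.25, also after adjustment, which is the smallest that 3 pairs allow.

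Promoters are printed for Pax1 and Meox2, both of which were at least 1.5-fold lower in every pair, because the factor lacking in the mutant belongs to a class that binds the E-box, CANNTG. The windows are the 250 bases before the annotated start in RefSeq on GRCm38.p6, a build other than that of the probe coordinates, and 4 of the 6 genes matched that table. Both are on the plus strand, Pax1 at chr2:147364744-147364993 and Meox2 at chr12:37108290-37108539, and capitals mark an E-box.
Pax1: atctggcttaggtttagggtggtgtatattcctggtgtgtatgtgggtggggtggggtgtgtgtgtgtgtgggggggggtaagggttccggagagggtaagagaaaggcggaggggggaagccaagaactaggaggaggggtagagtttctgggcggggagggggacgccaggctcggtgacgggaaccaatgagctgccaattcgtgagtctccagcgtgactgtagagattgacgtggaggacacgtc
Meox2: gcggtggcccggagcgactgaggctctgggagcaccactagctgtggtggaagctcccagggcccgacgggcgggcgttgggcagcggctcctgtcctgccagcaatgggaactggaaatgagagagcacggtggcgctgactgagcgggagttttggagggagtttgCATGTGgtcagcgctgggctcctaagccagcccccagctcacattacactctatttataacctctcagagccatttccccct
The motif reads the same on both strands. The Pax1 window held 0 matches and the Meox2 window 1, which starts 82 bases before the gene's start. The windows of Nkx3-2 and Pax9 held 1 each. Of 32851 windows of this length, 66.2% held at least 1 match.

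By Euclidean distance over the 3 pair ratios, among 19274 other genes, the nearest to Pax1 was Tcf15 at a distance of 1.94. The next, Fap, was at 4.27. Meox2 had nearer neighbours: Dmrt2 at 0.24, with log2 ratios of -2.05, -1.43 and -1.04, and Itih5 at 0.45. Dmrt2 encodes a doublesex-related factor of the dermomyotome.

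The lists of related genes were chosen with earlier results of these data known, so their counts are descriptive only. Among 20 other sclerotome factors, all of them tested, none passed the adjusted threshold. At an unadjusted p under 0.05, 9 were lower and 0 higher, where 2.73% of all genes were lower and 2.34% higher. The median log2 ratio was -0.24, with -0.38, -0.16 and -0.22 in pairs A, B and C. Tbx18 and Uncx, which mark the anterior and the posterior part of each somite in turn, had -1.02 (SE 0.11) and -0.78 (SE 0.08), and Ebf2, a helix-loop-helix factor, had -1.07 (SE 0.17).

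Of 15 genes of the hedgehog and BMP inputs to the sclerotome, 0 were lower and 2 higher at an unadjusted p under 0.05, and the median was 0.02, with -0.12, -0.01 and 0.07 in pairs A, B and C. Ptch1, the hedgehog receptor and itself a target of the pathway, had 0.29 with an SE of 0.07, and the BMP antagonist Grem1 had 0.38 with an SE of 0.12. Of 15 tested genes of cartilage matrix, 3 were lower and 1 higher, with a median of -0.02, and of -0.10, 0.07 and 0.10 by pair. The small proteoglycan Fmod had -1.04 with an SE of 0.12 and the matrix Gla protein Mgp -0.63 with an SE of 0.08.

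Of 16 tested tendon inputs and products, the list closest to Scx, 1 was lower and 2 higher, with a median of 0.11. The median was 0.32 in pair A, and below 0 in pairs B and C, at -0.14 and -0.04. Tgfb3 had -0.61 and Tgfb2 0.48, each growth factor keeping its sign in all 3 pairs, and Egr1, a zinc-finger factor active in tendon, had 0.40. Of 6 tested other Pax genes, only Pax3 had an unadjusted p under 0.05, at -0.49 with an SE of 0.09, and the median was 0.02 (-0.12, -0.04 and 0.13 by pair). Of 11 tested genes of dermomyotome and myotome, 4 were lower and 0 higher, with a median of -0.15 (-0.69, 0.01 and -0.16 by pair), among them Dmrt2 at -1.51 and Eya2, a transcriptional cofactor, at -1.0. No gene of these lists passed limma's adjusted threshold.

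**Figure D4:**
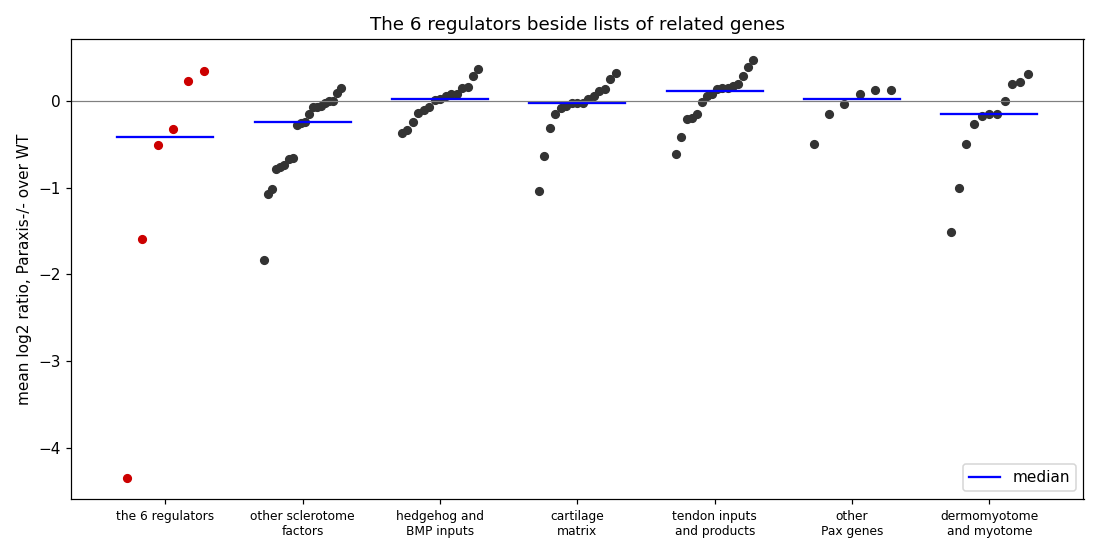
Mean log2 ratio of Paraxis-/- over WT (vertical axis) for the 6 regulators and for the tested genes of 6 related lists (horizontal axis), with 1 point per gene and a line at the median. The medians are -0.41 for the 6 regulators and -0.24 for the other sclerotome factors, and Pax1 at -4.35 lies below every point of the lists.

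The tissue was checked on marker lists. All 9 tested of 10 markers of paraxial mesoderm and somite were well above background. Their summed log2 level was 16.45 to 16.58 in WT pools and 15.59 to 16.10 in Paraxis-/- pools. These markers include Tcf15, at a mean level of 15.17 in WT and 9.76 in Paraxis-/-. They also include Meox1, one of the 6 genes, at 14.52 and 14.76. The sum is thus not independent of the targeted gene or of the 6 genes. Of the 9 mean ratios, 5 were below 0 and 4 above, and their median was -0.18. By pair it was 0.04, -0.40 and -0.27 in A, B and C. Pax1 and Pax9 are also expressed in pharyngeal endoderm. Of 8 endoderm markers 6 were tested (Foxa1, Foxa2, Sox17, Epcam, Cdh1 and Tbx1). All 6 were well above background in all measurements of both genotypes and had mean ratios above 0, with a median log2 ratio of 0.28. The summed level was 12.33 to 12.88 in WT and 12.82 to 12.99 in Paraxis-/- pools. Foxa2, the brightest of the 6, also marks notochord and floor plate. Single pairs were below 0 for Tbx1 (-0.42 in A), Epcam (-0.12 in B), and Cdh1 and Foxa1 (-0.18 and -0.13 in C). The remaining markers of that list, Foxe1 and Nkx2-1, were not well above background in any measurement. Primitive blood markers had a median of 0.56 over 6 genes, and of 0.26, 1.12 and -0.03 in pairs A, B and C, so that pair B was the highest, with sums of 16.51 to 17.30 in WT and 17.28 to 17.88 in Paraxis-/- pools. Median log2 ratios of the other lists were 0.17 for notochord and floor plate, 0.09 for neural tube, 0.06 for lateral plate and limb, -0.09 for endothelium and 0.22 for surface ectoderm, and the pair medians of notochord, neural tube and endothelium differed in sign. For head mesenchyme the median over 4 genes was 0.03. The summed level was 12.20 to 12.48 in WT and 11.39 to 11.94 in Paraxis-/- pools, without overlap. Twist1, the brightest of the 4 and also one of the other sclerotome factors above, had -0.76 with an SE of 0.25 (limma, adjusted p = 0.933). Dlx2, Dlx5 and Tfap2a had mean ratios above 0, at 0.04, 0.19 and 0.02. The part of these cell types in the ratios of the 6 genes was not tested.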

How the data were processed

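The deposited files hold spot intensity of both dyes, which Agilent Feature Extraction wrote; per the file headers its version was 10.7.3.1 for slide 1 and 10.5.1.1 for slide 2, and the submitters' processing notes name 8.5.1.1. The deposited log10 ratio of Cy5 over Cy3 was used as an alternative. Per the labels' protocols, 250 ng of RNA with an integrity number of at least 7.9 was labelled. Median signals were corrected with normexp (offset 50) and loess, without the 1639 control spots and outlier spots, using R 4.3.3 and the package limma 3.58.1. Ratios were turned to Paraxis-/- over WT and dye swaps averaged, so that n is 3 pairs, tested two-sided against 0 (lmFit, eBayes) and adjusted by Benjamini-Hochberg over 19353 genes. Levels are log2 signals after loess and Aquantile. Probes well above background in at least 4 of 6 measurements of a genotype were kept (28637 of 41174), and the brightest stood for its gene. Of the genes tested, 73 had fewer than 3 pairs.

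Gene names in the files were updated through a RefSeq listing: 26690 probes matched by accession, 5189 by symbol and 952 by synonym, and 8343 kept their name. Coordinates are mm9, per the file headers, and exons or untranslated regions are not annotated here. For 2 arrays the title and the description name different pools, and the title was followed. Deviations of the arrays that share a pair by title correlated across genes at 0.42 to 0.64, and other combinations at -0.44 to -0.12, where centring itself pushes values below 0; uncentred, they correlated at 0.28 to 0.56 and -0.12 to 0.08. The pair therefore served as the replicate. The labels call the pools biological replicates.

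The 6 genes and all lists were chosen with earlier results of these data known. Named were all probes of the 6 genes, Tcf15, up to 4 genes of each list with the smallest p, and the 3 genes nearest in ratio to a member whose mean was at least 1.5-fold; not every gene so taken is reported here. The fit was tested on simulated data. Alternatives covered background correction, normalization, probe filter and summary, dye, slide, blocks and left-out pairs.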

Additional observations from a re-analysis of the deposited data

How the results depend on the processing

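Of the 18 alternatives 2 repeat another (slide 2 only is the fit without pair A, and the deposited ratios are Agilent's processed signals). Under the 16 distinct ones Pax1 kept its direction and passed in 15, Tcf15 passed in 15, Meox2 passed in 4, and Pax9, Nkx3-2, Meox1 and Scx passed in none. Of all genes, 4 passed as reported (2 lower, 2 higher). There were 7 with a normexp offset of 0, 18 with ratios scaled between arrays (14 lower, 4 higher), 19 on the arrays with Paraxis-/- in Cy3 (16 lower, 3 higher), 2 on those in Cy5 and 2 on slide 2 only. Treating the 6 arrays singly gave 66 with the replicate block, 91 with no replicate block and 74 with slide as a block; dye swaps of the same pools then count as samples. Members past the threshold were 2, Pax1 and Meox2, in those 3 fits and with scaled ratios. Meox2 was at -1.58 (limma, adjusted p = 0.0367) when scaled, -1.59 with the replicate block (adjusted p = 0.00166) and without it (adjusted p = 0.00123), and -1.61 with the slide block (adjusted p = 0.00152). Over its alternatives the adjusted p of Meox2 ran from 0.00123 to 0.992.

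Leaving out 1 pair gave 0 to 2 genes and 0 to 1 members past the threshold. Without pair B, limma called 0 genes, with 732 at an unadjusted p under 0.05. Then Pax1 was at -4.44 (adjusted p = 0.229) and Tcf15 at -5.37 (adjusted p = 0.0854). Leave-one-out ranges were -5.50 to -5.35 for Tcf15, -4.44 to -4.18 for Pax1 and -0.84 to 0.11 for Pax9. Pax9 turned to 0.11 on slide 2 only, which is the same as leaving out pair A. The dimmer Meox1 probe turned to -0.0044 without pair C, within a range up to 0.31. The cause was not tested. Slide 1 holds 1 pair and allows no test. Requiring all 6 measurements above background removed the dim Pax1 probe, and averaging probes gives no value per probe. Signal near background limits Nkx3-2, the dim Pax1 probe and the dimmer Meox2 probe. The Paraxis-/- signal of the bright Pax1 probe was also low, so the size of its fall depends on the background correction. Its ratio was -4.35 as reported and -4.64 with no background correction. It was -4.94 with a normexp offset of 0 and -5.27 with Agilent's processed signals.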

Other observations

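The pattern of Pax9, below -1.5 in pair A and within 0.25 of 0 in pairs B and C on the log2 scale, was shared by 6 other genes among 19280 with all 3 pairs. The bounds were chosen after the values were seen. Pcolce, an enhancer of collagen processing, had -2.49, 0.25 and -0.06 in pairs A, B and C. Fibin had -2.03, -0.11 and -0.22, Fabp7, a fatty acid binding protein, had -2.01, 0.02 and -0.22, and Cuedc1 had -1.98, 0.03 and -0.06. Sh3gl3 and Chst1 were at -1.75 and -1.59 in pair A.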
